A study of Homo sapiens with 60 samples.

Results

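Polygalae Radix is the dried root of Polygala species, a herb of East Asian medicine traditionally given for memory, sleep and anxiety. Its ethanol extract was put on SW1783 cells, a human astrocytoma line (a tumour line of the astrocyte lineage), in the Polygalae Radix dose series described here. The series consists of 3 of the 60 RNA sequencing libraries of the study, chosen by their titles: a low dose of 1.2 µg/mL, a medium dose of 6 µg/mL and a high dose of 30 µg/mL, with 1 library each. All cells, the controls included, were grown in Leibovitz's L-15 medium with serum and harvested after 24 h. The controls received only the solvent, dimethyl sulfoxide (3 vehicle libraries), which the sample labels give as 0.1% and the design text at another concentration. The study set out to record how decoctions used for "Qi" disorders and their constituent herbs change gene expression. For extracts that inhibited cells below the study's usual top dose, the design text takes the high dose from that inhibition and dilutes it 5-fold and 25-fold, which are the ratios found here. The size of that inhibition for Polygalae Radix is not given in the sources used here, and cell number or survival was not analysed here. SW1783 is a single tumour line, and 1 library per dose gives no spread between cultures of the same dose.

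The root holds triterpenoid saponins, glycosides with detergent-like surfaces that are known to bind membrane sterols, along with xanthones and esters of sugars with aromatic acids. Astrocytes are the supporting glia of the brain, and astrocytoma lines in culture keep some astrocyte genes, such as those for the filament protein vimentin and the hyaluronan receptor CD44, while often losing others. Bulk RNA sequencing gives the share that each gene takes of all RNA in a culture, so that fewer cells of one kind and less RNA of a gene per cell cannot be told apart.

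The high-dose library differed from all others in make-up. Total counts were 20.25, 20.47 and 18.73 M in the vehicle libraries, 21.13 M at the low, 27.38 M at the medium and 25.91 M at the high dose. Genes of the mitochondrial genome took 11.6 to 11.9% of counts with vehicle, 14.2% at the low, 16.1% at the medium and 20.3% at the high dose, against 10.1 to 16.8% in the 57 libraries outside the series. Across genes, log2 CPM (read counts scaled to a common library size) correlated with the vehicle mean at r = 0.967 for the low, 0.974 for the medium and 0.843 for the high dose, and at 0.896 to 0.997 in those 57 libraries. The scaling factor from trimmed mean of M values (TMM), which sets the bulk of genes level between libraries, was 1.23 for the high dose and 0.939 to 1.04 in those 57. The astrocyte markers VIM, CD44, SOX9 and SLC1A3 of the 8 astroglial markers listed were above 10 CPM, whereas GFAP, S100B and ALDH1L1 were near 0 and AQP4 was at 0 in the first vehicle library. Of the 7 oligodendrocyte markers none reached the floor, and of the microglia and macrophage markers only CD68 did, with AIF1, TYROBP and C1QA at 0. No list of markers of another cell type summed higher at the high dose than in the other libraries of the series apart from the oligodendrocyte markers, which reached 10.5 CPM at the high dose, nearly all of it MBP.

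The high dose differed from the lower doses in a large part of the measured genes. A gene was called higher or lower when the high dose lay at least 1.5-fold from the mean of the medium and low doses on the log2 scale (prior count 2) and beyond the medium, low and all 3 vehicle libraries. Of 9865 genes with a mean of at least 10 CPM, 1563 (15.8%) were called higher and 2529 (25.6%) lower. With library size alone as the scale the split turned to 3099 higher and 1597 lower of 10105 genes. The median of all genes moved from -0.06 to 0.23 log2, so each direction below is relative to the bulk of genes. At least 2-fold and with no condition on the range, 362 genes (3.67%) were higher and 1225 (12.4%) lower. No p-value is given, since a single library per dose has no replicate check and an exact permutation test of 1 library against the 3 vehicle libraries could not go below 0.25. The yardstick used instead is the SD of log2 CPM between libraries of one group, pooled for each gene over the 19 replicated groups of the study (35 degrees of freedom). It describes the spread in those groups, not at these doses.

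**Figure D1:**
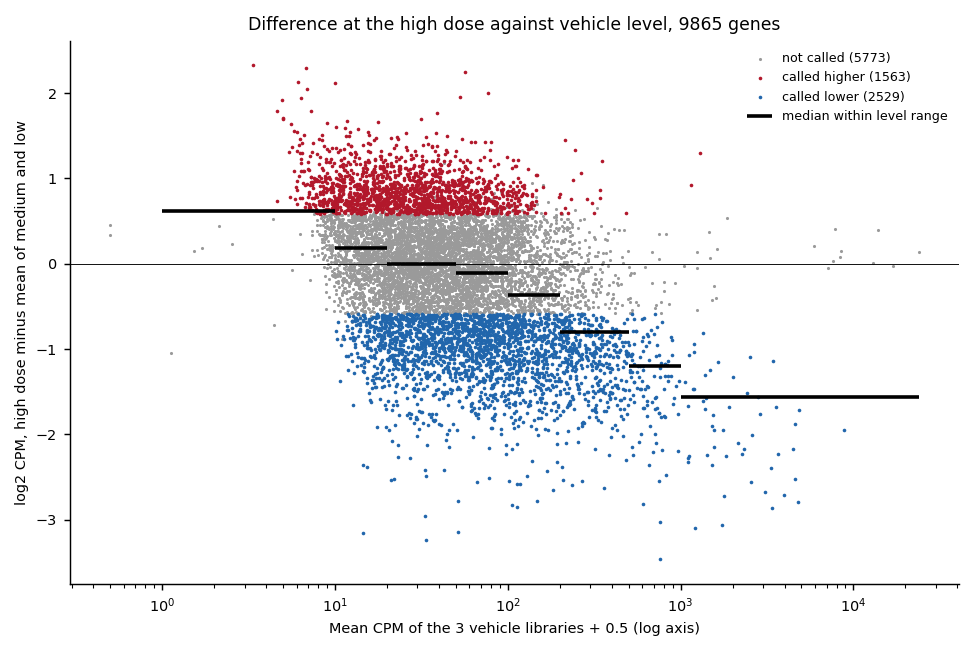
Each point is 1 of 9865 genes, with the mean CPM of the 3 vehicle libraries on the log x axis and the log2 difference between the high dose and the mean of the medium and low doses on the y axis; bars are medians within ranges of vehicle level. The medians step down from 0.18 at 10 to 20 CPM to -1.56 at 1000 CPM or more.

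The direction of the difference followed the level a gene had in vehicle-treated cells, as plotted against vehicle level. Of the 75 genes at 1000 CPM or more with vehicle, 52 (69.3%) were called lower and 2 (2.67%) higher, those being FTL and FTH1, the chains of the iron store ferritin. Between 20 and 50 CPM the called genes were nearly balanced, with 574 of 3406 higher and 678 lower. Below 10 CPM, 220 of 405 genes were called higher, but such genes pass the 10 CPM floor mainly through a high level at the high dose, so that share is fixed in part by the floor. Spearman's rank correlation of the difference was -0.40 with the level in the 57 other libraries, 0.30 with the length of the longest transcript and -0.14 with its GC content, as descriptions across genes. For the difference between medium and low dose the same values were -0.25, 0.38 and -0.32. Genes called higher had longer transcripts, with a median of 4837 bases, than genes called lower, with 3010 bases. Every group of abundant transcripts described below therefore sits in a range where falls were common. Counts after removing a trend on level are given beside many of them. With that trend removed, 1242 of all 9865 genes were called higher and 2081 lower, against 1563 and 2529 before.

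The 12 largest rises included those of GDF15, IFIT2, RND3, BCL7A, TBX2, FOXD2-AS1, ITPRIP, KLF11, ZNF850, IGFN1 and DUSP8. In each of these 11 the high dose had the highest value of all 60 libraries. That it lay above the medium, low and vehicle libraries is part of the call. GDF15, BCL7A, FOXD2-AS1, KLF11, ZNF850 and DUSP8 were under 10 CPM at both lower doses and pass the floor through the high dose. GDF15, a secreted stress cytokine on chromosome 19 that acts on a hindbrain receptor, had 2.72, 2.99 and 2.82 CPM with vehicle, 4.00 at the low, 8.31 at the medium and 29.3 CPM at the high dose. It was thus higher at each dose than at the one before and 5.01-fold higher at the high dose than at the mean of the others (log2 2.33, pooled SD 0.16). The high value rests on 933 counts, with an exact Poisson 95% interval of 27.4 to 31.2 CPM, which, like the others given here, covers counting error only. Outside the series GDF15 reached 28.5 CPM, inside that interval. Its high-dose difference was 3.10 log2 in the extract Soshiho-tang, 1.42 in Aucklandiae Radix and 0.84 in Schisandrae Fructus. IFIT2, an interferon-induced protein that binds viral RNA (chromosome 10), had 7.81, 4.83 and 6.19 CPM with vehicle, 8.10 at the low, 14.4 at the medium and 53.4 CPM at the high dose, a difference of 2.30 log2 (pooled SD 0.25). RND3, an atypical small GTPase that opposes actin stress fibres (chromosome 2), had 54.8, 56.4 and 56.4 CPM with vehicle, 61.1 at the low, 104 at the medium and 379 CPM at the high dose. Its difference was 2.25 log2 with a pooled SD of 0.068, and RND3 was also high elsewhere in the study, up to 302 CPM.

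**Figure D2:**
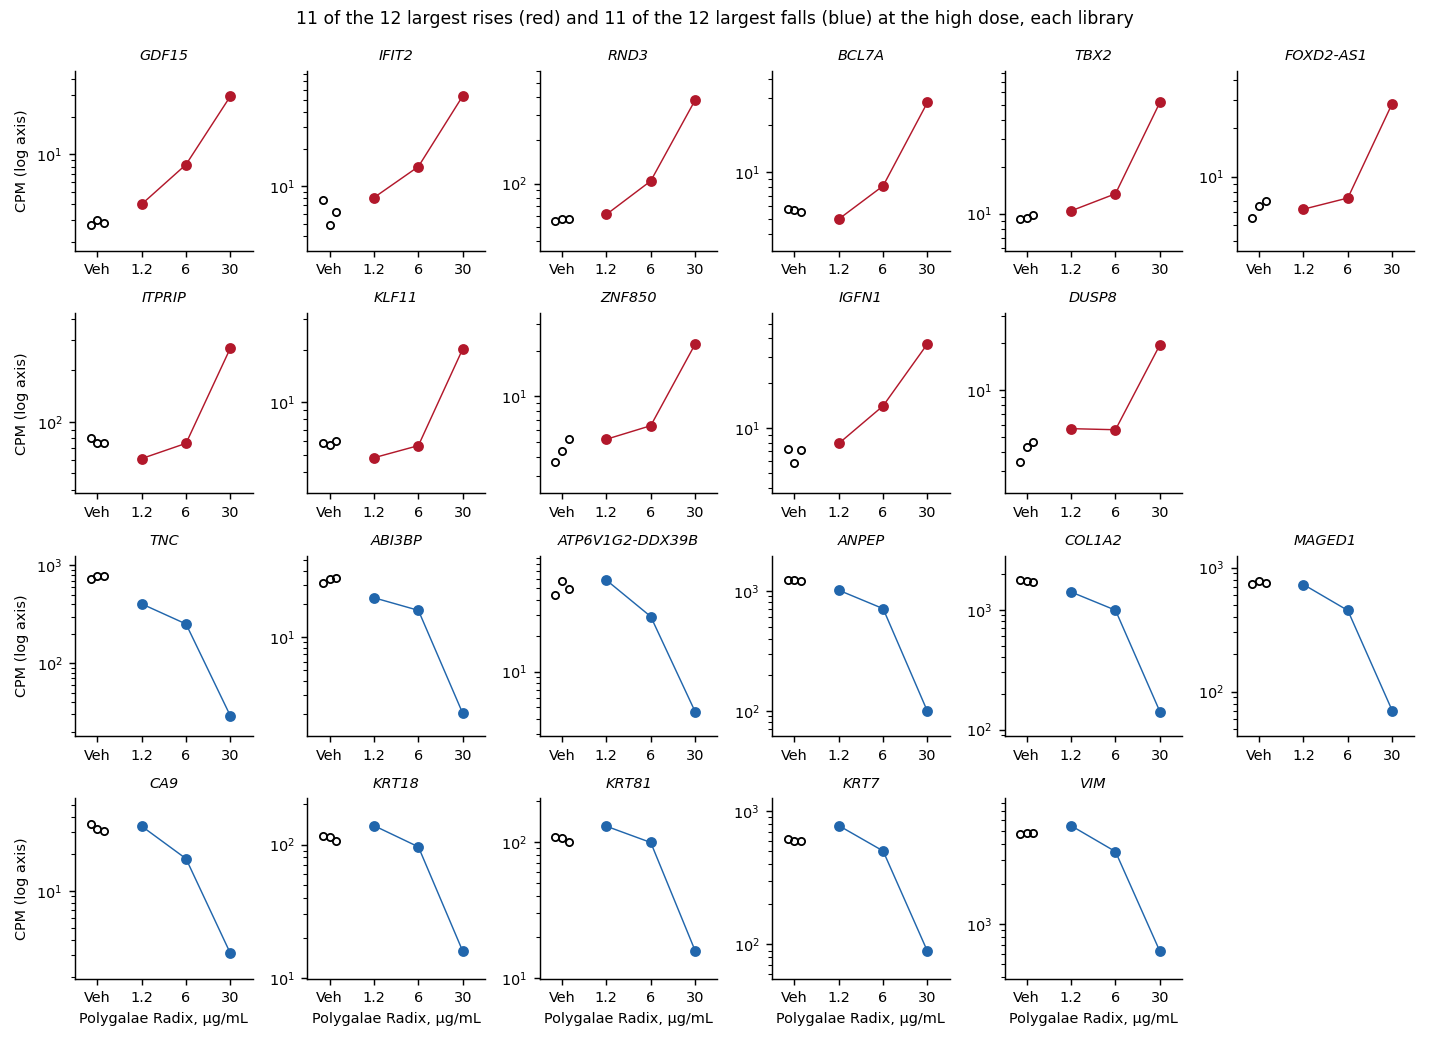
Each panel plots the CPM of 1 gene on a log axis in the 3 vehicle libraries (open circles) and the 1.2, 6 and 30 µg/mL libraries (filled, 1 each). The panels show how the values are spread over the doses, such as the step after 6 µg/mL in KLF11 and the descent from 404 to 252 to 28.9 CPM over the doses in TNC; that the 30 µg/mL point lies beyond the others is part of the call.

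Several of the remaining rises were in regulators of transcription. TBX2, a T-box repressor on chromosome 17, had 9.25, 9.31 and 9.77 CPM with vehicle, 10.4 at the low, 13.4 at the medium and 51.6 CPM at the high dose (log2 2.12, pooled SD 0.093), against at most 15.4 CPM in the 57 other libraries. BCL7A, a subunit of the SWI/SNF chromatin remodelling complex, had 5.74, 5.68 and 5.48 CPM with vehicle, 4.97 at the low, 8.14 at the medium and 28.1 CPM at the high dose (log2 2.13). KLF11, a Krüppel-like factor that responds to TGF-beta, stayed between 4.82 and 6.02 CPM in the vehicle, low and medium libraries and reached 20.3 CPM at the high dose (log2 1.94). In these genes most of the difference lay between the medium and the high dose. ITPRIP, which binds the inositol trisphosphate receptor, had 75.0 to 80.5 CPM with vehicle, 60.8 at the low, 74.7 at the medium and 271 CPM at the high dose (log2 2.01). DUSP8, a phosphatase that inactivates stress-activated MAP kinases, had 3.46, 4.28 and 4.61 CPM with vehicle, 5.64 at the low, 5.55 at the medium and 19.5 CPM at the high dose (log2 1.79). FOXD2-AS1, a long noncoding RNA on chromosome 1, had 28.4 CPM at the high dose and 5.54 to 7.36 CPM in the other 5 libraries. It is antisense to FOXD2, and as the strand setting of the counting is not given, reads of the pair may not have been told apart. IGFN1, a muscle Z-disc protein, and ZNF850, a zinc finger protein, reached 36.7 and 22.1 CPM at the high dose against highest values of 14.1 and 6.40 CPM at the lower doses.

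The 12 largest falls included those of TNC, ABI3BP, ATP6V1G2-DDX39B, ANPEP, COL1A2, MAGED1, CA9, KRT18, KRT81, KRT7 and VIM. In each of these 11 the high dose had the lowest value of the 60 libraries. That it lay below the medium, low and vehicle libraries is part of the call. TNC, the matrix glycoprotein tenascin C on chromosome 9, had 731, 782 and 773 CPM with vehicle, 404 at the low, 252 at the medium and 28.9 CPM at the high dose. The mean of the medium and low doses was 11.0-fold above the high dose (log2 -3.46, pooled SD 0.14). The low dose was already outside the vehicle range, where library set and treatment cannot be told apart. Low doses of the extracts Aucklandiae Radix, Soshiho-tang and Schisandrae Fructus also lay below that range, at 525, 618 and 604 CPM. ANPEP, the surface peptidase aminopeptidase N (chromosome 15), had 1222, 1225 and 1206 CPM with vehicle, 1013 at the low, 711 at the medium and 98.8 CPM at the high dose (log2 -3.10, pooled SD 0.068). COL1A2, a chain of type I collagen (chromosome 7), had 1767, 1730 and 1703 CPM with vehicle, 1410 at the low, 993 at the medium and 141 CPM at the high dose (log2 -3.06, pooled SD 0.038). All 3 genes ran down over the doses in order. VIM, the vimentin of glial and mesenchymal filaments, had 4741, 4783 and 4776 CPM with vehicle, 5446 at the low, 3488 at the medium and 627 CPM at the high dose (log2 -2.80, pooled SD 0.049). Outside the series VIM lay between 4235 and 5674 CPM in all 57 libraries.

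The other falls named above were those of keratin genes, of MAGED1 and of genes of lower abundance. KRT7, KRT18 and KRT81, filament proteins of epithelia and hair, had 88.7, 15.9 and 15.9 CPM at the high dose against 504, 96.1 and 98.9 CPM at the medium dose. MAGED1, an adaptor in neurotrophin receptor signalling, had 738, 777 and 755 CPM with vehicle, 730 at the low, 451 at the medium and 70.2 CPM at the high dose. CA9, a carbonic anhydrase induced by hypoxia, had 30.9 to 35.2 CPM with vehicle, 33.5 at the low, 18.3 at the medium and 3.10 CPM at the high dose, the last from 99 counts (exact Poisson 95% interval 2.52 to 3.78 CPM). ABI3BP, a matrix protein, reached 2.04 CPM at the high dose from 65 counts (1.57 to 2.60 CPM), against 22.8 and 17.5 CPM at the low and medium doses. ATP6V1G2-DDX39B is a read-through transcript that shares sequence with the abundant DDX39B, so its fall (58.8 CPM at the low, 29.04 at the medium, 4.61 at the high dose) is uncertain.

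Extracellular matrix genes were the only one of the 29 gene lists in which every member at the floor was called lower. These 22 collagen and matrix genes stood against 25.6% of all genes, with a median of -1.84 log2 against -0.06 for all genes. FN1, fibronectin, had 4094, 4671 and 4685 CPM with vehicle, 2082 at the low, 1573 at the medium and 402 CPM at the high dose. SPARC, a collagen-binding glycoprotein, had 2385, 2407 and 2208 CPM with vehicle, 2133 at the low, 1676 at the medium and 418 CPM at the high dose. BGN, the proteoglycan biglycan, had 49.6, 52.4 and 51.8 CPM with vehicle, 51.9 at the low, 37.5 at the medium and 6.37 CPM at the high dose. The medium dose was below the low dose in 21 of the 22 genes, THBS2 being the exception with 144 CPM at the medium and 136 CPM at the low dose. After a trend on level was removed, 17 of the genes kept the call. The summed level of the list was 3826 CPM at the high dose, against 13653 at the medium and 17420 CPM at the low dose. Among TGF-beta and YAP targets, which include many matrix and contractile genes, 8 of 16 were called lower, such as TAGLN, TGFBI and AXL. The 2 called higher were LATS2 and SKIL, which encode negative regulators of those pathways. Over all genes 25.6% were called lower and 15.8% higher, the latter near the share in this list.

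**Figure D3:**
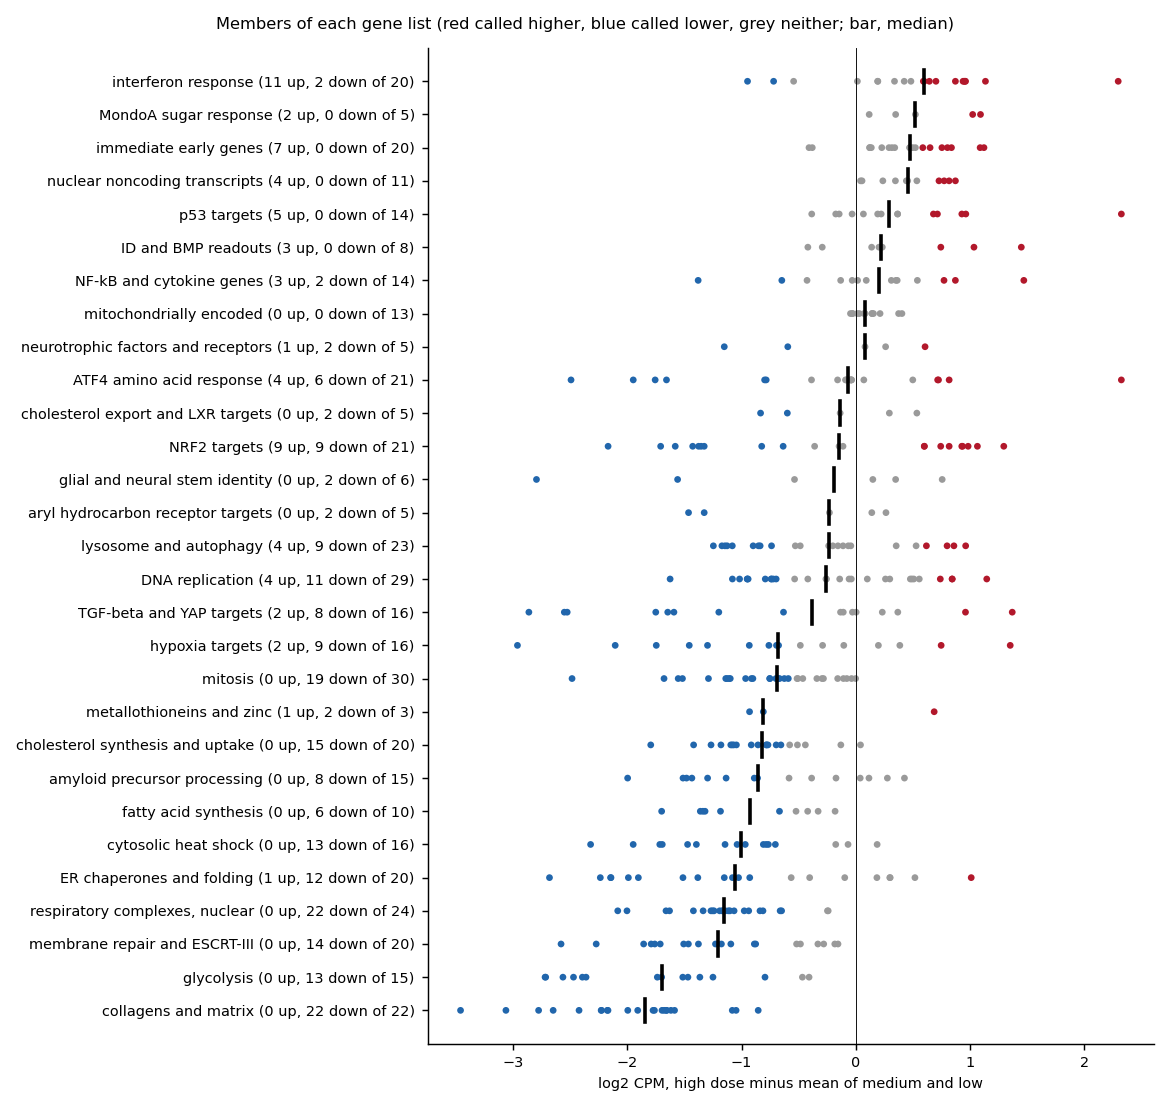
Each row is a gene list and each point a member at the floor, placed by its log2 difference between the high dose and the mean of the medium and low doses; black bars are medians. Matrix (-1.84), glycolysis (-1.70) and membrane repair (-1.20) have the lowest medians and interferon response (0.60) the highest. With library size alone the values move right, and the medians of the ATF4, NRF2, cholesterol export, glial, lysosome and DNA replication lists then lie above 0.

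Nuclear genes of energy metabolism were mostly called lower, whereas those encoded in the mitochondrion were not. Of 15 glycolysis genes 13 were called lower (median -1.70 log2) and none higher, against 25.6% and 15.8% of all genes. GAPDH, the enzyme often used as a reference gene, had 4104, 3923 and 3865 CPM with vehicle, 4402 at the low, 3058 at the medium and 558 CPM at the high dose (log2 -2.72, pooled SD 0.079). LDHA, which turns pyruvate to lactate, had 1856, 1770 and 1719 CPM with vehicle, 1781 at the low, 1239 at the medium and 225 CPM at the high dose. ENO1 and PGK1, further enzymes of the pathway, differed by -2.56 and -2.47 log2. Removing the trend on level left 11 glycolysis calls. Of 24 nuclear genes of the respiratory complexes 22 were called lower (median -1.15), led by ATP5F1A, a subunit of the ATP synthase, with 53.5 CPM at the high dose against 185 at the medium and 279 CPM at the low dose. None of the 13 mitochondrially encoded protein genes was called in either direction (median 0.08). MT-CO1, a subunit of cytochrome c oxidase, had 23815, 24038 and 24111 CPM with vehicle, 25574 at the low, 27692 at the medium and 29373 CPM at the high dose. With library size alone 1 of the 13 was called higher, and after removing the trend on level 5 were. Against the vehicle the same 13 genes had a median of 0.56 log2 at the high dose, and summed to 139723 CPM at the high dose against 135342 at the medium and 126675 CPM at the low dose and 102006 to 106264 CPM with vehicle, where library set and treatment cannot be told apart. Hypoxia targets, several of them glycolytic or matrix-modifying, had 9 of 16 members lower and 2 higher, against the same 25.6% and 15.8%. P4HA1, a collagen prolyl hydroxylase, had 40.2 CPM at the high, 159 at the medium and 189 CPM at the low dose. ADM, the vasodilator peptide adrenomedullin, was called higher with 36.7 CPM at the high dose against 16.9 at the medium and 12.2 CPM at the low dose.

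Protein folding genes of both the endoplasmic reticulum and the cytosol were lower. Of 20 chaperone genes of the endoplasmic reticulum 12 were called lower and 1 higher (median -1.05), against 25.6% and 15.8% of all genes. HSPA5, the lumenal Hsp70 chaperone BiP on chromosome 9 and the classic readout of the unfolded protein response, had 2994, 3165 and 3119 CPM with vehicle, 3147 at the low, 2144 at the medium and 405 CPM at the high dose (log2 -2.68, pooled SD 0.044). HSP90B1 had 1416, 1453 and 1379 CPM with vehicle, 1477 at the low, 1118 at the medium and 272 CPM at the high dose. The one gene called higher under TMM was DNAJB9, a co-chaperone induced through IRE1. It had 39.8 CPM at the high dose against 21.9 at the medium and 17.8 CPM at the low dose. With library size alone 12 of the 20 genes were called lower and 4 higher, against 1597 and 3099 of all 10105 genes. Of 16 cytosolic heat shock genes 13 were called lower and none higher (median -1.004). With library size alone 9 of them were called lower. HSP90AA1 had 1083, 1122 and 1110 CPM with vehicle, 1261 at the low, 887 at the medium and 211 CPM at the high dose. The small heat shock protein gene HSPB1 had 128 CPM at the high dose against 380 at the medium and 455 CPM at the low dose. All 8 genes of the T-complex chaperonin, a family taken up after its values were seen, were called lower as well (median -1.48).

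The promoter of HSPA5 is shown because it carries the element through which chaperone genes are known to be switched on together. It is read from RefSeq (GRCh38.p14, minus strand, chr9:125241294-125241593, from 250 bases before to 50 after the gene start), with the match to the endoplasmic reticulum stress element (CCAAT and CCACG with 9 bases between them) in capitals, 66 bases before the start.
HSPA5: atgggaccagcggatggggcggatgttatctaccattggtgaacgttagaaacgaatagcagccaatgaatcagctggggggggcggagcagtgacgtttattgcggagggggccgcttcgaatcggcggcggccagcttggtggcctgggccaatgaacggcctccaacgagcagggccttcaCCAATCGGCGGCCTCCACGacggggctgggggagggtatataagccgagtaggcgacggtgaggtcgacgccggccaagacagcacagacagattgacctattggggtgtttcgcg
Searched on both strands, that element was in 5 of the 11 promoters found for the chaperone genes called lower (CALR, CANX, CRELD2, HSP90B1 and HSPA5) and in 27 of 35116 promoters of that table (0.0769%). The heat shock element, GAA, TTC and GAA with 2 bases between the blocks, was in 2 of the 12 promoters found for the heat shock genes called lower (DNAJA1 and HSPA8) and in 172 promoters of the table (0.49%). The letters describe these windows and say nothing of binding.

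Genes of lipid synthesis were lower, with differences of smaller size. Of 20 genes of cholesterol synthesis and uptake 15 were called lower, against 25.6% of all genes, and none higher (median -0.82). With library size alone 10 were called. DHCR7, which makes the last step to cholesterol, had 34.8, 34.96 and 36.6 CPM with vehicle, 32.9 at the low, 24.7 at the medium and 8.15 CPM at the high dose (log2 -1.80). HMGCS1, an early enzyme of the pathway and a readout of the sterol sensor SREBP2, had 38.9, 41.7 and 39.5 CPM with vehicle, 37.8 at the low, 36.0 at the medium and 25.8 CPM at the high dose, a difference of -0.51 log2 that missed the 1.5-fold mark. Of 10 fatty acid synthesis genes 6 were called lower (3 after removing the trend on level). ACLY, which supplies acetyl-CoA, had 440, 453 and 446 CPM with vehicle, 330 at the low, 231 at the medium and 84.9 CPM at the high dose. FASN, fatty acid synthase, had 311, 311 and 332 CPM with vehicle, 219 at the low, 120 at the medium and 64.1 CPM at the high dose. Both were below the vehicle range at every dose, and FASN was not called with the trend on level removed (log2 -0.55). The low doses of the extracts Aucklandiae Radix, Soshiho-tang and Schisandrae Fructus also lay below that range, at 360, 404 and 399 CPM for ACLY. For FASN they were at 260, 283 and 288 CPM. In distances from the vehicle, library set and treatment cannot be told apart.

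Genes of membrane repair and ESCRT-III reseal damaged plasma membranes. Of 20 such genes 14 were called lower, against 25.6% of all genes, and none higher (median -1.20). ANXA2, a calcium-dependent membrane binder, had 1132, 1153 and 1006 CPM with vehicle, 1324 at the low, 1001 at the medium and 238 CPM at the high dose. CAVIN1, a coat protein of caveolae, had 810, 795 and 821 CPM with vehicle, 844 at the low, 659 at the medium and 215 CPM at the high dose. The 8 annexin genes and 10 of 11 tubulin genes at the floor, families taken up after their values were seen, were called lower under TMM. Of 15 genes of amyloid precursor processing 8 were called lower. APP itself had 494, 512 and 497 CPM with vehicle, 426 at the low, 386 at the medium and 145 CPM at the high dose (log2 -1.48), and SORL1, a sorting receptor for APP, had 5.39 CPM at the high dose against 19.9 at the medium and 23.8 CPM at the low dose. With the trend on level removed, the call of APP was lost (log2 -0.40) and that of 5 amyloid genes held. In lysosome and autophagy genes 9 of 23 were called lower, among them the cathepsin genes CTSB, CTSD and CTSL, and 4 higher. Over all genes 25.6% were called lower and 15.8% higher, the latter near the share in this list. With the trend on level removed 4 of the 23 were called lower, against 2081 of all 9865 genes. CTSB (log2 -0.33) and CTSD (-0.30) were not among the 4. The 4 higher were RRAGC, FLCN, GPNMB and UVRAG, of which GPNMB was not called with that trend removed (log2 0.05). RRAGC encodes a subunit of the Rag GTPases that place mTORC1 on lysosomes, and FLCN acts on those GTPases. RRAGC and FLCN had 149 and 94.9 CPM at the high and 90.3 and 61.0 CPM at the medium dose. At the low dose they had 64.4 and 44.8 CPM, and with vehicle 57.4 to 62.3 and 35.7 to 42.0 CPM.

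Division and protein synthesis genes were lower as groups. Of 30 mitosis genes 19 were called lower, against 25.6% of all genes, and none higher (median -0.69). With library size alone or with the trend on level removed 12 were called lower. KIF20A, a kinesin of cytokinesis, had 124, 135 and 125 CPM with vehicle, 116 at the low, 89.7 at the medium and 18.2 CPM at the high dose. CDC20, an activator of the anaphase-promoting complex, had 67.3 CPM at the high dose against 188 at the medium and 248 CPM at the low dose. MKI67, the proliferation marker, had 329, 398 and 400 CPM with vehicle. It had 168 CPM at the low, 162 at the medium and 104 CPM at the high dose. Most of its distance from vehicle was there at the low dose, where library set and treatment cannot be told apart. MKI67 was called under TMM but not with library size alone (log2 -0.38) or with the trend on level removed (0.00408). DNA replication genes were split, with 11 of 29 lower and 4 higher, against 25.6% and 15.8% of all genes. RRM1, a ribonucleotide reductase subunit, had 42.0 CPM at the high dose against 112 at the medium and 151 CPM at the low dose, while CCNE2, the S-phase cyclin E2, had 47.3 CPM at the high dose against 25.1 and 18.1 CPM. With library size alone 6 replication genes were called lower and 9 higher, against 1597 and 3099 of all 10105 genes at the floor on that scale. The direction of this list thus depends on the scale, as it does over all genes. With the trend on level removed 7 were called lower, against 2081 of all 9865 genes. Families taken up after their values were seen included the 18 aminoacyl-tRNA synthetase genes, which charge tRNAs and were all called lower (median -1.28), 31 of 36 proteasome subunit genes (median -1.10) and 65 of 81 ribosomal protein genes (median -0.92, 46 with library size alone). EPRS1, the bifunctional glutamyl-prolyl synthetase, had 25.2 CPM at the high dose against 106 at the medium and 163 CPM at the low dose. The ribosomal protein genes are short and rich in pseudogene copies, with which expected counts can share reads. RPL41 and RPS29 lay above 0 at 0.15 and 0.05 log2 and were not called.

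Interferon response genes were the list with the highest median. Of 20 at the floor 11 were called higher, against 15.8% of all genes, and 2 lower (median 0.60 log2). The 11 were IFIT2, XAF1, OASL, OAS2, MX1, IRF1, IFIT3, DTX3L, IRF9, IFIT1 and RIGI. IFIT3, a partner of IFIT2, had 22.8, 18.8 and 20.0 CPM with vehicle, 29.5 at the low, 43.5 at the medium and 65.7 CPM at the high dose. XAF1, a proapoptotic interferon target, had 18.1, 17.2 and 17.7 CPM with vehicle, 14.4 at the low, 20.4 at the medium and 37.8 CPM at the high dose. IRF1, a transcription factor of the response, had 23.6, 22.3 and 22.6 CPM with vehicle, 25.2 at the low, 26.5 at the medium and 49.6 CPM at the high dose. OASL and OAS2, enzymes or relatives of the 2-5A synthetases, had 23.3 and 13.4 CPM at the high dose, with pooled SDs of 0.23 each that are large beside most genes. OAS2, with 7.23 CPM at the low and 6.54 CPM at the medium dose, passes the floor through the high dose. Among the 2 called lower was ISG15, the ubiquitin-like modifier, with 11.2 CPM at the high dose against 20.0 at the medium and 23.6 CPM at the low dose. IFI6, IFI27 and IFI44 were not called, with -0.54, 0.19 and 0.01 log2. The list did not move as a block, and its low-abundance members sit in the range where rises were common. With the trend on level removed 4 members were called higher, OASL and OAS2 (both 0.21 log2) not among them, and against the medium dose alone 6.

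Promoters of 2 interferon genes are shown because both genes were called higher and hold the core of the interferon-stimulated response element (GAAA and GAAA with 2 bases between them), in capitals here on either strand. Both are from RefSeq (GRCh38.p14, plus strand), IFIT3 at chr10:89327747-89328046 with matches 156 and 122 bases before the gene start and MX1 at chr21:41420308-41420607 with a match 11 bases after it.
IFIT3: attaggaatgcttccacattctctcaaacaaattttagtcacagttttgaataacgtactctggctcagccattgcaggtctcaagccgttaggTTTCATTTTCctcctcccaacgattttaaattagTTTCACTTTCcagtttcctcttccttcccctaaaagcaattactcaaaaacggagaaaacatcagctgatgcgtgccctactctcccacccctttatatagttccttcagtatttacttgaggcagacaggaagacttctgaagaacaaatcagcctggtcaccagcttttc
MX1: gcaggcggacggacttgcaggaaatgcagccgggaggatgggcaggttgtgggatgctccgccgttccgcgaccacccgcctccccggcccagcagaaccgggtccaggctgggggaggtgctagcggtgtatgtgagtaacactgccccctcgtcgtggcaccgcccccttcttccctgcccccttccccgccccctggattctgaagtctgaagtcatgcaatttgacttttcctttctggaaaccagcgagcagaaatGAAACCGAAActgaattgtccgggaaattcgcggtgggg
The motif was in 4 of the 8 promoters found for the 11 higher genes (DTX3L, IFIT1, IFIT3 and MX1), in that of ISG15, which was called lower, and in 1255 of 35116 promoters (3.57%).

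Stress-response lists held calls in both directions. Of 21 NRF2 targets, genes of the antioxidant response, 9 were called higher and 9 lower, against 15.8% and 25.6% of all genes. The 9 higher were FTL, TXNRD1, OSGIN1, SRXN1, FTH1, SLC7A11, GCLC, HMOX1 and GSR, genes of iron storage, thioredoxin, glutathione and haem breakdown. FTL, the ferritin light chain, had 1348, 1311 and 1213 CPM with vehicle, 1743 at the low, 2402 at the medium and 5026 CPM at the high dose (log2 1.296), and TXNRD1, thioredoxin reductase, had 261, 269 and 265 CPM with vehicle, 246 at the low, 336 at the medium and 601 CPM at the high dose (log2 1.07). The 9 lower included the pentose phosphate enzymes PGD, TKT and TALDO1. TKT, transketolase, had 475, 473 and 458 CPM with vehicle, 468 at the low, 343 at the medium and 123 CPM at the high dose (log2 -1.71). In all 18 genes the medium dose lay on the same side of the low dose as the high dose did. HMOX1, haem oxygenase 1, was the exception in shape: it had 58.9, 49.3 and 53.5 CPM with vehicle, 65.4 at the low, 145 at the medium and 148 CPM at the high dose, so that the medium and the high dose did not differ beyond its pooled SD of 0.077. It was called only through the mean with the low dose and was not against the medium dose alone (log2 0.03). SQSTM1, the autophagy receptor p62, was highest at the medium dose with 908 CPM, against 706 at the high and 641 CPM at the low dose.

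In the ATF4 amino acid response, the arm of the integrated stress response that restores amino acids, 4 of 21 genes were called higher and 6 lower, shares near the 15.8% and 25.6% of all genes. Higher were GDF15, SLC7A11, ATF4 and CEBPB, and lower were PHGDH, ASNS, PSAT1, SHMT2, TRIB3 and STC2. ATF4, the transcription factor itself, had 143, 137 and 132 CPM with vehicle, 175 at the low, 198 at the medium and 307 CPM at the high dose. ASNS, asparagine synthetase and a standard target of ATF4, had 52.0, 48.5 and 49.8 CPM with vehicle, 58.6 at the low, 39.2 at the medium and 12.4 CPM at the high dose (log2 -1.95). PHGDH, the first enzyme of serine synthesis, had 33.8, 33.1 and 32.2 CPM with vehicle, 38.8 at the low, 24.6 at the medium and 5.43 CPM at the high dose. The regulator and these target genes moved in opposite directions. DDIT3, the stress factor CHOP, was not called, with 26.9 CPM at the high dose against 27.0 and 29.4 CPM. ATF3, followed for comparison, stayed under the floor, with 7.62 CPM at the high dose against 2.72 at the medium and 2.701 CPM at the low dose.

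Of 14 p53 targets 5 were called higher, against 15.8% of all genes, and none lower (median 0.29), and 3 after removing the trend on level. They were GDF15, MDM2, TNFRSF10B, FAS and CDKN1A, of which FAS (0.50 log2) and CDKN1A (0.58) fell short of 1.5-fold with that trend removed. MDM2, the ubiquitin ligase of p53, had 38.6, 42.8 and 44.1 CPM with vehicle, 41.4 at the low, 49.2 at the medium and 88.1 CPM at the high dose (log2 0.96, pooled SD 0.069), and no other library of the study exceeded 49.3 CPM. CDKN1A, the cell cycle inhibitor p21, had 21.2, 23.3 and 20.6 CPM with vehicle, 22.1 at the low, 21.0 at the medium and 34.6 CPM at the high dose. TNFRSF10B, a death receptor, had 100.3 CPM at the high dose against 56.7 at the medium and 48.9 CPM at the low dose. In the BCL2 family, taken up after its values were seen, 4 of 10 genes were called higher, against 15.8% of all genes, and none lower. PMAIP1, the proapoptotic NOXA, had 107 CPM at the high dose against 41.5 and 39.5 CPM, and BCL2L11, the proapoptotic BIM, 16.9 against 7.57 and 6.03 CPM. The prosurvival BCL2 was called higher as well, with 19.4 CPM at the high dose against 7.36 and 5.16 CPM. BCL2 and BCL2L11, like GDF15 among the p53 targets, were under 10 CPM at both lower doses and pass the floor through the high dose. Those counts are thus fixed in part by the floor.

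Immediate early and feedback genes lay higher in part. Of 20 at the floor 7 were called higher, against 15.8% of all genes, and none lower (median 0.47). With library size alone 13 were called higher, against 3099 of all 10105 genes at the floor on that scale. NR4A1, an orphan nuclear receptor, had 8.46, 6.87 and 8.41 CPM with vehicle, 8.39 at the low, 9.02 at the medium and 19.04 CPM at the high dose. It passes the floor through the high dose. DUSP1, a MAP kinase phosphatase, had 40.7, 40.0 and 39.1 CPM with vehicle, 44.0 at both lower doses and 93.7 CPM at the high dose. EGR1 was not called, with 91.8 CPM at the high dose against 123.3 at the medium and 121 CPM at the low dose and a pooled SD of 0.33. Of 14 NF-kB and cytokine genes 3 were called higher (LIF, TNFAIP3 and NFKBIA) and 2 lower (CCL2 and TNIP1), against 15.8% and 25.6% of all genes, and with a trend on level or on length and GC removed 1 was called lower. LIF, a cytokine of the IL6 family, had 22.5, 20.1 and 19.3 CPM with vehicle, 24.1 at the low, 30.8 at the medium and 75.7 CPM at the high dose. CXCL8, the neutrophil chemokine that reached 64.2 CPM elsewhere in the study, stayed at 2.92 CPM at the high dose against 2.51 and 2.85 CPM. Of 8 ID and BMP readouts 3 were called higher. ID3, an inhibitor of bHLH factors, had 218, 235 and 189 CPM with vehicle, 266 at the low, 362 at the medium and 848 CPM at the high dose (log2 1.45, pooled SD 0.14), and the BMP inhibitors SMAD6 and BAMBI had 34.9 and 17.9 CPM at the high dose against 18.3 and 10.9 CPM at the medium dose. With the trend on level removed the differences of BAMBI (0.04 log2) and NR4A1 (0.38 log2) were not called, while the lists had 3 and 8 members called higher. BDNF, a neurotrophin, had 49.3, 51.5 and 50.1 CPM with vehicle, 56.7 at the low, 56.5 at the medium and 86.2 CPM at the high dose (log2 0.61, pooled SD 0.059), just past the 1.5-fold mark, and was not called with a trend on length and GC removed (log2 0.44). TXNIP, which restrains glucose uptake, had 21.2 CPM at the high dose against 11.4 and 9.50 CPM. CYP1B1, a target of the aryl hydrocarbon receptor, was not called, with 91.7 CPM at the high dose against 114 and 102 CPM.

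Zinc finger genes and several noncoding types had more members called higher than lower. Against 15.8% higher and 25.6% lower over all genes, of 276 genes named ZNF, most of them repressors of the Krüppel-associated box type, 182 were called higher and 1 lower, with a median of 0.74 log2; the family was taken up after its values were seen. ZNF548 had 12.4, 11.1 and 11.8 CPM with vehicle, 9.69 at the low, 17.05 at the medium and 37.8 CPM at the high dose. The one called lower was ZNF428, with 21.4 CPM at the high dose against 36.1 and 39.1 CPM. Their reads can be shared between near-identical members, and their levels are low as a rule. Only 276 of 557 such genes were at the floor, which counts the high dose itself. Members such as ZNF850, with 5.21 CPM at the low and 6.40 CPM at the medium dose, pass it through the high dose. The share called higher is thus fixed in part by the floor. Summed over all 557, the level was 10422.5 CPM at the high, 7064 at the medium and 6239 CPM at the low dose. Of 61 long intergenic noncoding RNAs 25 were called higher and 1 lower, and of 67 antisense RNAs 21 higher and 3 lower. NORAD, a noncoding RNA that binds Pumilio proteins, had 332, 361 and 353 CPM with vehicle, 274 at the low, 371 at the medium and 737 CPM at the high dose, the highest of all libraries. NEAT1, the scaffold of nuclear paraspeckles, had 357, 335 and 334 CPM with vehicle, 516 at the low, 672 at the medium and 1007 CPM at the high dose, and was not called with a trend on length and GC removed (log2 0.50) or against the medium dose alone (log2 0.58). MALAT1, a nuclear speckle RNA, had 878, 724 and 873 CPM with vehicle and 2306, 2186 and 2855 CPM at the low, medium and high doses, so that its difference from vehicle was present at every dose; library set and treatment cannot be told apart there. Processed pseudogenes showed the reverse balance, with 13 of 20 called lower and 1 higher.

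Most genes called at the high dose lay on the same side of the low dose at the medium dose, by a smaller amount. Between medium and low dose only 95 of 9776 genes (0.972%) were 1.5-fold or more apart, 30 higher (0.307%) and 65 lower (0.665%) at the medium dose. Yet of the 1563 genes called higher at the high dose, 1463 (93.6%) were also above the low dose at the medium dose, with a median difference of 0.23 log2. Of the 2529 called lower, 2386 (94.3%) were below it, with a median of -0.21. Of all 9865 genes 51% were above, with a median of 0.01. The medium and low libraries both enter the mean against which the high dose was called, but the call does not fix which of them is higher. Both differences also followed level, length and GC content in the same direction, as given above, and the part of these trends in the shared side was not tested. Relative to the vehicle the low dose lay on the opposite side, by medians of -0.16 and 0.12 log2, as taken up below. The largest rises between medium and low dose were those of HMOX1 (1.15 log2), GPNMB, a lysosomal glycoprotein (1.11), and SIK1, a kinase that restrains CREB coactivators (0.99). SIK1 had 14.1, 11.9 and 13.5 CPM with vehicle, 12.9 at the low, 25.8 at the medium and 54.9 CPM at the high dose, and GPNMB had 17.2 CPM at the medium dose and 20.4 CPM at the high dose against 7.96 CPM at the low dose. The largest falls were those of ZACN, ATP6V1G2-DDX39B and MYH9. MYH9, the heavy chain of non-muscle myosin, had 2481, 2525 and 2733 CPM with vehicle, 1825 at the low, 902 at the medium and 318 CPM at the high dose. ZACN varied by a pooled SD of 2.15 log2 between libraries of one group, so its difference of -1.254 is within the spread of other groups.

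**Figure D4:**
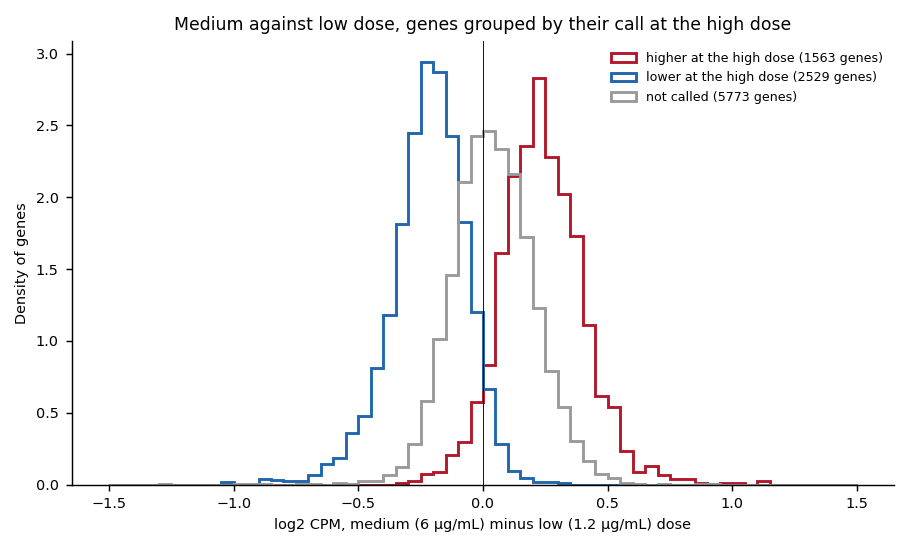
The x axis is the log2 difference between the medium and the low dose and the y axis the density of genes, for genes called higher (1563), called lower (2529) or not called (5773) at the high dose. The peaks of the genes called higher and lower lie on opposite sides of 0, with medians of 0.23 and -0.21.

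Against the vehicle, 1611 of 9856 genes (16.3%) were called higher and 2676 (27.2%) lower at the high dose. The vehicle libraries form a set of their own in the library names, while the Polygalae Radix libraries share a set with those of Aucklandiae Radix, another ethanol extract given as 1 library per dose. In this comparison library set and treatment cannot be told apart, which is why the lower doses of the same set served as the first comparison. For genes called at the high dose, the low dose differed from the vehicle by medians of -0.16 log2 for those called higher and 0.12 for those called lower. Both are opposite in sign to the change at the high dose. The medians between medium and low dose, 0.23 and -0.21, therefore do not give the distance of the medium dose from the vehicle. Across genes the correlation with the vehicle mean was 0.967 for the low and 0.974 for the medium dose. Large distances between low dose and vehicle existed for single genes, such as FBN1, the microfibril protein fibrillin 1, with 281 CPM at the low dose against 584, 648 and 675 CPM with vehicle.

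The number of called genes was larger than for any other extract of the study. The 7 other extracts gave 18 dose series, each of 1 high, 1 medium and 1 low library with the same replicate number. Treated in the same way with the same vehicle range, these had between 0 and 1459 genes called, with a median of 58.5. Polygalae Radix had 4092 (41.5%). Aucklandiae Radix had 1459 (15%), Schisandrae Fructus 692, 819 and 852 (7.13%, 8.41% and 8.74%) and Soshiho-tang, a decoction, 399 and 413 (4.09% and 4.24%). The share of genes called was 0.309%, 0.991% and 1.04% in Zizyphi Semen, 0.606%, 0.493% and 0.596% in Yijin-tang, 0.0824%, 0.072% and 0.0513% in Longan Arillus and 0, 0.0617% and 0.0617% in Liriopis seu Ophiopogonis Tuber. The doses differ between extracts, up to 500 µg/mL, so the values stand side by side and no ranking by potency follows. Pairs of libraries of the same group had 2 to 1270 genes at 1.5-fold or more, with a median of 10 over 51 pairs, and the 2 highest pairs both held 1 library of Longan Arillus at the medium dose. Across genes the high-dose difference of Polygalae Radix correlated with those of the other dose series at Pearson's r between -0.13 and 0.25, as a description. The genes called higher had medians between -0.02 and 0.08 log2 in the other dose series, and those called lower between -0.08 and 0.06. KRT81, for example, differed by -2.83 log2 at the high dose of Polygalae Radix and by 0.82 log2 at that of Schisandrae Fructus. COL1A2 was lower in 2 more extracts, by -1.13 log2 in Aucklandiae Radix and -1.32 in Soshiho-tang, against -3.06 in Polygalae Radix. HMOX1 gave the opposite order, with 0.60 log2 in Polygalae Radix against 4.07 in Aucklandiae Radix and 3.00 in Soshiho-tang. ASNS was -1.95 log2 in Polygalae Radix and 1.69, 1.47 and 1.05 in Aucklandiae Radix, Soshiho-tang and Schisandrae Fructus. None of these differences between extracts was tested, because Polygalae Radix had 1 library per dose.

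**Figure D5:**
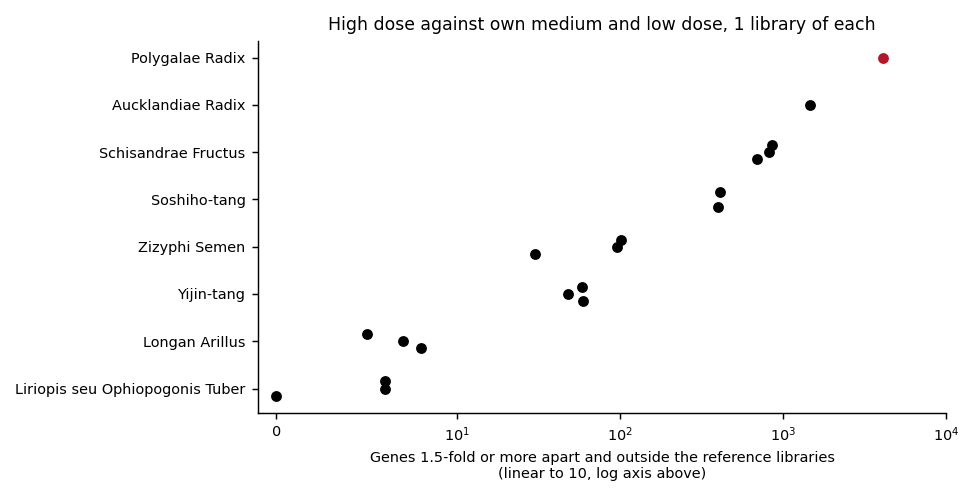
Rows are extracts and each point is the number of genes called for 1 high-dose library against 1 medium and 1 low library of the same extract, on an axis that is linear to 10 and logarithmic above. Polygalae Radix is at 4092 and the next extract, Aucklandiae Radix, at 1459.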

How the data were processed

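Messenger RNA libraries of SW1783 cells were made with a strand-directional MGI kit and read in pairs, per the labels' protocols. The authors deposited their RSEM output, expected counts with 1 value for each gene and library, and per the submitters' processing notes reads passed through FastQC 0.11.9, Trim Galore 0.6.5, STAR 2.7.3a and RSEM 1.3.3 on GRCh38. Which annotation release and strand setting were used is not stated in these sources. The table had 60675 genes, of which 57055 matched GENCODE release 29, the source of gene types and chromosomes; 10.86% of values were not whole, and all were rounded. TMM factors were computed with edgeR 4.0.16 over all 60 libraries on 18607 genes and log2 CPM with a prior count of 2. Calls needed a 1.5-fold difference, a mean of 10 CPM and a high dose beyond all reference libraries; the steps were tested on simulated data. DESeq2 1.42.0 gave alternative size factors. Named genes were the 12 largest rises and falls, up to 4 called members per list with the largest difference, 10 followed genes and the 3 largest rises and falls between medium and low dose; members of lists and families named besides were chosen after their values were seen. The members and the lists were chosen with earlier results of these data known. At 18.73 to 27.38 M counts, counting error matters mainly for genes under 10 CPM. Nothing in the sources says whether the vehicle libraries came from separate cultures. Some named genes are not reported here.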

Additional observations from a re-analysis of the deposited data

Results flagged for a closer look

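In 3 of the genes with the largest differences at the high dose of Polygalae Radix, every high-dose library of another extract lay at least 1.5-fold on the opposite side of the mean of that extract's medium and low doses. The difference between extracts was not tested. FOXD2-AS1 differed by 2.05 log2 with Polygalae Radix and by -0.67 with Soshiho-tang. DUSP8 differed by 1.79 log2 with Polygalae Radix and by -0.70 with Aucklandiae Radix. Both genes were under the 10 CPM floor in the other extract, so these opposite differences could not have been called. At the low, medium and high dose FOXD2-AS1 had 6.00, 6.42 and 3.88 CPM with Soshiho-tang. DUSP8 had 4.96, 4.56 and 2.89 CPM with Aucklandiae Radix. KRT81 differed by -2.83 log2 with Polygalae Radix and by 0.82 with Schisandrae Fructus. Aucklandiae Radix had 1 library per dose, Soshiho-tang 2 and Schisandrae Fructus 3 high-dose libraries.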

How the results depend on the processing

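No paired analysis was possible because each dose had 1 library and the groups share fewer than 2 replicate numbers. Counts are given as higher and lower for the high dose over medium and low, the high dose over vehicle, and the medium over low dose. Library size alone gave 3099 and 1597, 3221 and 1647, and 84 and 31. Library size without mitochondrial genes, an alternative chosen after seeing the data, gave 3791 and 1381 for the first comparison. With no floor there were 4556 and 4199, 5987 and 4889, and 2308 and 3749. A floor of 30 CPM left 869, 807 and 8 higher, and one of 5 CPM gave 59 higher for medium over low. At 2-fold there were 358 and 1224, 452 and 1367, and 2 and 3, and at a laxer fold threshold 2671, 2839 and 631 higher, with 644 lower for medium over low. Leaving out 1 vehicle library gave 1563 to 1579 higher and 2529 to 2536 lower against medium and low, and 1566 to 1628 higher and 2634 to 2674 lower against vehicle. Of 123 called genes named by rule, 123 kept their call with DESeq2 size factors, 117 with library size alone, 98 at 2-fold, 86 with a floor of 30 CPM (GDF15, BCL7A, FOXD2-AS1, KLF11, ZNF850, IGFN1 and DUSP8 among the lost, being below it), 114 against the medium dose alone, 118 with a trend on length and GC removed and 102 with a trend on level removed, the last also chosen after seeing the data. MKI67 turned to 0.00408 log2 there. The cause was not tested in any of these. With 1 library per dose no variation between cultures was measured, and each high-dose value rests on 1 culture.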
